A study of Mus musculus with 2 samples.

Results

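The 9 genes described here are the IGF binding proteins Igfbp1 to Igfbp7 and the receptors Igf1r and Igf2r, taken by name from the 55415 genes counted. The family was chosen by the UMI levels of its members over the cells of these same libraries, so the levels below are a description. They were measured in single cells of mouse liver labelled as biliary epithelial cells, in 1 library with the genotype label Sox9cKO and 1 with the genotype label Sox9con. The sex, age and strain of the mice, the Cre driver, the deleted part of Sox9 and any treatment are not given in the sources used here. Each genotype is a single library, so a difference between the libraries cannot be told apart from a difference between animals or preparations, and no test was made. The libraries are called cKO-labelled and control-labelled, because the Sox9 counts do not bear out the label throughout. In the biliary fraction Sox9 stood at 122 CPM with the cKO label and 146 CPM with the control label, where CPM is a gene's count of transcripts by unique molecular identifier (UMI), scaled to the total UMIs of the same fraction, cluster, class or well of that library. The log2 ratio was -0.25 (95% counting interval -0.35 to -0.16), and Sox9 was higher in the cKO-labelled well in 10 of 20 pairs of barcoding wells. By sublibrary it was higher with the cKO label in 1 of 8. The sign of the pooled ratio rested on well D9 of the control-labelled library, which held 861 of 1772 UMIs at 220.3 CPM. Without D9, left out after the data were seen, the control-labelled level was 110.2 CPM and the log2 ratio 0.15 (0.030 to 0.26). The deleted part is not named, so these counts check the label only in part.

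Insulin-like growth factors circulate and act bound to binding proteins, which carry them, hold them near the cell surface or matrix, and limit their access to the IGF1 receptor, a receptor tyrosine kinase that signals through insulin receptor substrates, PI3 kinase and Akt. Proteases such as pappalysin release the ligand by cutting binding proteins, IGFBP4 above all, and stanniocalcins inhibit pappalysin. The IGF2 receptor carries mannose-6-phosphate-tagged enzymes to lysosomes and clears IGF2. In liver, hepatocytes are the main source of circulating IGF1, while binding proteins are made by several cell types, and IGFBP7 is known from vessel walls.

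The results turn on Igfbp4, Igfbp5 and Igfbp7, whose levels divided the biliary clusters differently. Their upstream sequences are shown so that the 3 start regions can be set side by side. They come from RefSeq on build GRCm38.p6, in which all 9 members have an entry, and they run 5′ to 3′ on the gene's strand. Capitals mark matches on either strand to the motifs searched. For SOX factors these were ACAAAG and also ACAATG, for TEAD factors GGAATG, for AP-1 TGACTCA, for the GC box GGGCGG and for the TATA box TATAAA. No matches overlap. The Igfbp4 window lies at chr11:99040994-99041243 on the plus strand, the Igfbp5 window at chr1:72874885-72875115 on the minus strand and the Igfbp7 window at chr5:77408046-77408295 on the minus strand. The Igfbp5 window ends 19 bases short of the RefSeq start, where the GENCODE annotation already places an exon.
Igfbp4: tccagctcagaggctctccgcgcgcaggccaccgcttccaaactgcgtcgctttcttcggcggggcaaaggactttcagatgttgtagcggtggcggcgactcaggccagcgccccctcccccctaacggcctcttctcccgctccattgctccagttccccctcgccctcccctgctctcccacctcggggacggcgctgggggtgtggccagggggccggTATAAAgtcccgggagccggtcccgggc
Igfbp5: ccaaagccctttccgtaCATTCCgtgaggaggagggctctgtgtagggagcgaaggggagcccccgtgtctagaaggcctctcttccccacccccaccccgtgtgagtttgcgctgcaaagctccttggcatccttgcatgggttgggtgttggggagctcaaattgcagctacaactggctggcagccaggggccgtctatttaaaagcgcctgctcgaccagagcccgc
Igfbp7: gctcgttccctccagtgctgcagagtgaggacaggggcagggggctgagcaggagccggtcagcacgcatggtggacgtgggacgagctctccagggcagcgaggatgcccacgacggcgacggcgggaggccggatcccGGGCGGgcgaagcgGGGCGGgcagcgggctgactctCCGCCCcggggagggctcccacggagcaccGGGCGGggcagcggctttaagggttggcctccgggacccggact
The Igfbp4 window held 1 TATAAA, beginning 28 bases before the start, a motif found in 12.4% of the 32851 upstream windows of 250 bases. The Igfbp5 window held 1 GGAATG on the other strand, 233 bases before the start, a motif found in 12.6% of windows. The Igfbp7 window held 4 GGGCGG matches, 3 of them on the gene's strand, and 32.7% of windows held at least 1. These letters are a description of the windows and say nothing on binding. The SOX letters, which 16.5% (ACAAAG) and 10.7% (ACAATG) of windows hold, and the AP-1 letters, which 4.46% hold, were not in these 3 windows.

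The deposited matrices held 2740 cells with 14856321 UMIs in the cKO-labelled library and 3622 cells with 12811243 UMIs in the control-labelled one. The cKO-labelled cells were 1.59 times deeper at the median (5020.0 against 3161 UMIs), and no barcode was shared. After filtering, 2710 and 3505 cells remained in 12 clusters, formed without the 9 members, the IGF pathway genes or Sox9. Of these, 2601 and 3370 made up the biliary fraction, 84 and 117 were endothelial-like, 8 and 7 mesenchymal-like, and 17 and 11 stayed unnamed. In the biliary fraction 11 of 12 biliary markers reached 50 CPM in either library, while all 12 endothelial markers together summed to 31.6 and 44.2 CPM. Leading genes set a cluster against the other kept cells, and no biliary marker was among the first 10 of any cluster in the fraction. Those of clusters 1, 5 and 6 included 1 mesothelial, 1 hepatocyte and 1 neutrophil marker, so values by cluster number are given beside those of the fraction. Clusters 3 and 5 were nearly confined to the cKO-labelled library, with 805 and 545 cells against 27 and 0, while cluster 0 (119 against 1226 cells) and cluster 2 (65 against 895) leaned to the control-labelled one. In summed counts, fewer cells with a transcript and less of it per cell cannot be told apart, so shares of cells are given too.

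Of the 9 members, 5 had at least 200 UMIs over both libraries in the biliary fraction, and Igfbp1, Igfbp2, Igfbp3 and Igfbp6 did not. Among those 5, Igfbp4 alone lay 2-fold or more above the control-labelled library, beside 2.19% of the 9325 genes with as many UMIs, and 0 lay 2-fold or more below it, beside 1.80%. In either direction it was 1 of 5, beside 3.99% of genes. Igfbp4 reached the 200 UMIs through the cKO-labelled library alone, and the genes were chosen with these values known, so nothing is read from the count. The median log2 ratio was 0.34 over the 5 members and -0.070 over all 9325 genes, of which the central 95% lay between -0.92 and 0.93. With the size factors of DESeq2 in place of the library totals the numbers of genes at least 2-fold higher and lower moved from 204 and 168 to 234 and 124, and the 5 members' ratios shifted up together, by as much as the median of all genes.

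**Figure D1:**
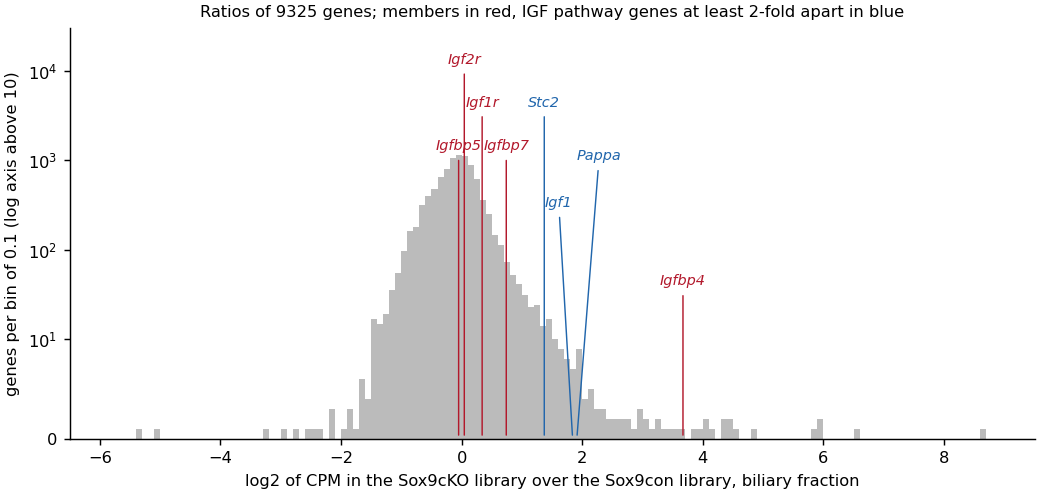
Histogram of the log2 ratio (x axis, cKO-labelled over control-labelled CPM in the biliary fraction) of the 9325 genes with at least 200 UMIs, in bins of 0.1 (y axis, number of genes, logarithmic above 10). Red lines mark the 5 members that passed and blue lines the 3 genes of the IGF pathway list at least 2-fold apart; Igfbp4 sits at 3.67, and Igfbp5 and Igf2r sit near 0.

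Igfbp4, a soluble binding protein that holds IGFs away from their receptor, was the member with the large difference between the libraries. Its UMIs numbered 1132 in the biliary fraction of the cKO-labelled library and 75 in that of the control-labelled one. These counts correspond to 78.8 CPM (74.3 to 83.5) and 6.16 CPM (4.84 to 7.72), a 12.7-fold difference with a log2 ratio of 3.67 (3.34 to 4.03), at rank 17 from the top among 9325 genes. At least 1 Igfbp4 UMI was found in 25.6% and 1.90% of cells. With every cell thinned to 2000 UMIs, which removes the difference in depth, the shares were 12.7% of 2462 cells and 1.18% of 2806 cells.

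By well of the first barcoding round, Igfbp4 stood at 86.3, 65.2, 84.8, 82.0 and 82.4 CPM in wells A11, A12, B1, B2 and B3 of the cKO-labelled library. It stood at 7.16, 4.51, 4.68 and 7.61 CPM in wells D9, D10, D11 and D12 of the control-labelled one. The wells of the libraries did not overlap, the lowest cKO-labelled well being above the highest control-labelled well in 20 of 20 pairs, and the cKO-labelled level was higher in 8 of 8 sublibraries. Wells and sublibraries are handling units of the same cells and are no replicates of a genotype. Over all kept cells, endothelial-like cells included, the log2 ratio was 2.27.

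**Figure D2:**
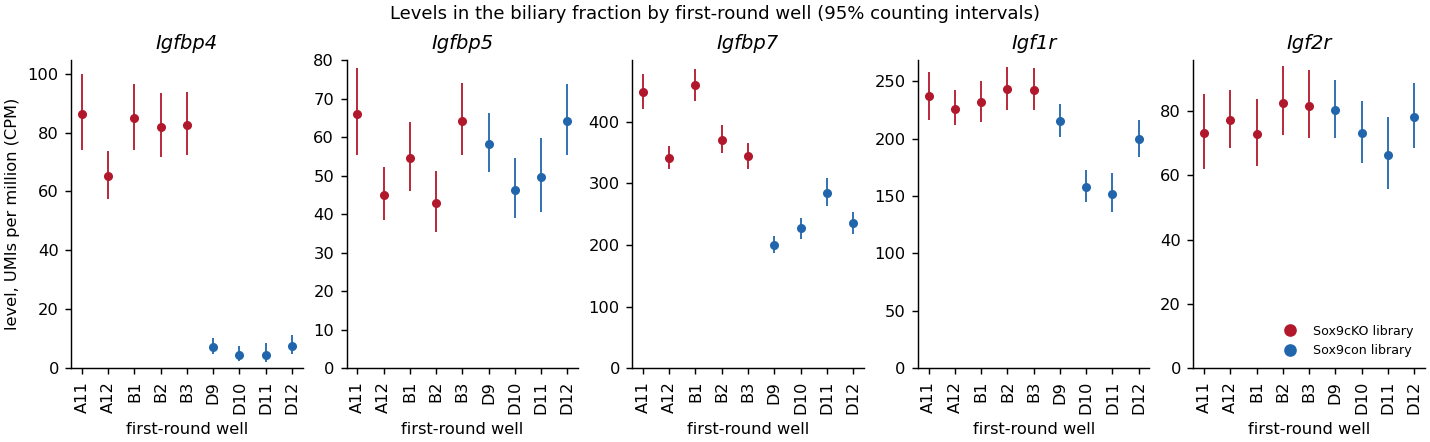
Level in CPM (y axis, from 0) of 5 members in the biliary fraction by first-round well (x axis), with exact 95% Poisson intervals. Red points are the 5 wells of the cKO-labelled library and blue points the 4 wells of the control-labelled one; the 2 sets are apart for Igfbp4, Igfbp7 and Igf1r and overlap for Igfbp5 and Igf2r.

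Most Igfbp4 transcripts of the cKO-labelled library lay in clusters 3 and 5. Cluster 3, led by Csf3, Ces1c and Ptgs2, held 639 of the 1132 UMIs at 134 CPM, with a UMI in 43.5% of its 805 cells. Cluster 5, led by the secreted plasma protein genes Hp and Serpina1b and by Fst, held 348 UMIs at 97.3 CPM, in 38.0% of its 545 cells. Together they held 87.2% of the Igfbp4 UMIs and 58.1% of all UMIs of that fraction. The 27 control-labelled cells of cluster 3 held 2 Igfbp4 UMIs (14.1 CPM, 1.71 to 51.0), both in 1 cell. The sum of the 10 hepatocyte markers was highest in these clusters of the cKO-labelled library. It was 989 CPM in cluster 3 and 1355 CPM in cluster 5, against 87.7 to 884 CPM in its other clusters. Most of it was Alb, at 851 and 959 CPM, and only 3 of the 10 markers reached 50 CPM in either of these clusters. In the control-labelled library the same sum was 1026 CPM in cluster 2 and 1283 CPM in cluster 7, where Igfbp4 stood at 3.53 and 5.27 CPM. The part of hepatocyte transcripts in the Igfbp4 levels was not tested.

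Outside clusters 3 and 5 Igfbp4 was still higher in the cKO-labelled library, at 24.1 against 6.07 CPM (log2 ratio 1.98, 1.57 to 2.42), a separation chosen after the data were seen. It was compared within the 6 clusters with at least 50 cells of each library. In cluster 0 the levels were 59.1 CPM (23 UMIs) against 8.17 CPM (32 UMIs), in cluster 1 they were 29.3 (82 UMIs) against 6.26 (12 UMIs), and in cluster 2 they were 22.9 (5 UMIs) against 3.53 (11 UMIs). In these 3 clusters the interval of the ratio lay above 0. In cluster 4 the levels were 16.8 and 8.78 CPM, with a log2 ratio of 0.91 (-0.058 to 2.01). Clusters 6 and 7 held at most 5 UMIs a library. All 6 ratios were above 0, from 0.91 to 2.82.

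Igfbp4 was spread over many cells at low counts. At 2000 UMIs, 22.0% of the cells of cluster 3 had at least 1 UMI where a Poisson draw with the same mean gives 24.9%, and the largest count in a cell was 4. In cluster 5 the shares were 16.0% and 17.2%. The counts are thus close to, and somewhat more uneven than, an even spread over the cells.

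Igfbp5, a binding protein that also binds extracellular matrix, did not separate the libraries in its summed UMIs and marked a different cluster. The biliary fraction held 766 UMIs with the cKO label and 672 with the control label, at 53.3 CPM (49.6 to 57.2) and 55.2 CPM (51.1 to 59.5). The log2 ratio was -0.050 (-0.20 to 0.10), and its sign turned with the TMM factors of edgeR (0.015) and the size factors of DESeq2 (0.020). Levels by well ran from 42.8 to 66.0 CPM in the cKO-labelled library and from 46.3 to 64.2 CPM in the control-labelled one, and the wells overlapped. Shares of cells at 2000 UMIs were 7.31% and 7.02%. The levels at that depth were 59.9 CPM (53.3 to 67.2) with the cKO label and 47.4 CPM (41.9 to 53.5) with the control label. With the stricter cell filter the log2 ratio was -0.25, so the direction depended on the setting.

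The Igfbp5 transcripts gathered in cluster 4, led by the gastric-type mucin gene Muc6 and by Bcl11a and Capn13, which both libraries shared. It held 365 of 766 UMIs at 219 CPM in its 356 cKO-labelled cells and 414 of 672 UMIs at 279.6 CPM in its 343 control-labelled cells. These are 47.7% and 61.6% of the libraries' Igfbp5 UMIs, from a cluster with 11.6% and 12.2% of all UMIs. Within cluster 4 the log2 ratio was -0.35 (-0.56 to -0.14), and 41.6% and 47.5% of cells had a UMI. Igfbp5 ranked 8th among the leading genes of cluster 4 although it had no part in the clustering. At 2000 UMIs 28.6% and 31.7% of its cells had a UMI where a Poisson draw gives 36.2% and 38.7%. The top 10% of cells held 58.9% and 52.8% of the cluster's Igfbp5 UMIs, against 58.1% for Igfbp4 in cKO-labelled cluster 3. The mean counts differ (0.449 and 0.489 against 0.286 UMIs a cell), so the evenness of the genes is not ranked. Cluster 1, led by Msln, Car4 and Tff2, held the next largest parts, 233 and 130 UMIs, at 83.2 and 67.9 CPM.

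Elsewhere Igfbp5 was mostly lower, at 6.29 CPM in cluster 3 of the cKO-labelled library and 3.21 CPM in cluster 2 of the control-labelled one. The 27 control-labelled cells of cluster 3 held 9 Igfbp5 UMIs in 3 cells (63.5 CPM, 29.0 to 121), 6 of them in 1 cell. In cluster 0 Igfbp5 stood at 46.2 CPM (18 UMIs in 12 cells) and 23.7 CPM (93 UMIs in 71 cells), with at most 5 UMIs in a cell. The latter is 13.8% of the control-labelled Igfbp5 UMIs. In other clusters single cells weighed heavily. In cluster 5 a single cell held 50 of the 64 UMIs, and without it the cluster's level was 3.92 in place of 17.9 CPM. In cluster 7 of the cKO-labelled library 27 UMIs lay in 6 cells, 13 of them in 1 cell, at 119 against 3.51 CPM in the control-labelled library, a log2 ratio of 4.66 (3.09 to 8.20) that rests on those cells. In cluster 6 the levels were 38.0 CPM (26 UMIs, 13 in 1 cell) and 14.4 CPM (14 UMIs). Leaving out clusters 3 and 5, where the cKO-labelled library holds little Igfbp5, its level was 112 against 55.1 CPM, a log2 ratio of 1.02 (0.86 to 1.18). The pooled ratio near 0 therefore combines a lower level in cluster 4, 3 clusters with a higher level and intervals above 0 (clusters 0, 6 and 7), and the mix of clusters in each library.

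**Figure D3:**
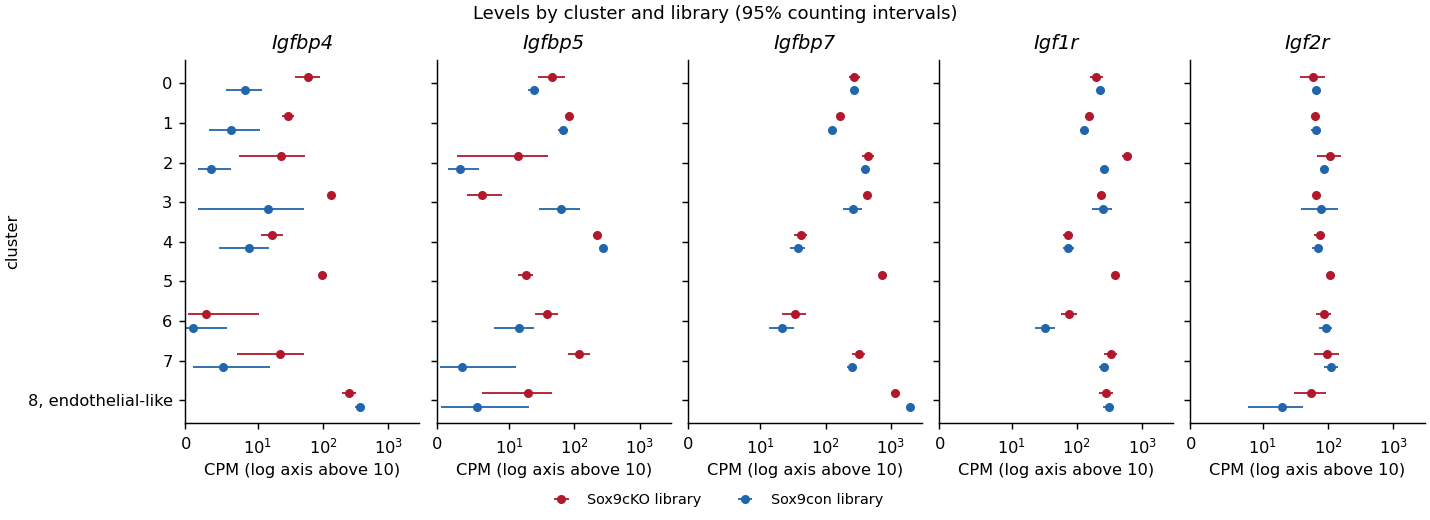
Level in CPM (x axis, logarithmic above 10) of 5 members by cluster (y axis), red for the cKO-labelled and blue for the control-labelled library, with exact 95% Poisson intervals. Igfbp4 is high in clusters 3, 5 and 8, Igfbp5 in cluster 4 at 219 and 279.6 CPM, and Igfbp7 is low in clusters 4 and 6; cluster 5 has no control-labelled cells.

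Igfbp4 and Igfbp5 were seldom found in the same biliary cell of the cKO-labelled library. At 2000 UMIs a cell, 11 cells had both, 302 only Igfbp4, 169 only Igfbp5 and 1980 neither. The product of the shares gives 22.9 cells with both, so the ratio of observed to expected was 0.481 (0.240 to 0.860). By well the ratio was 0.457, 0.235, 0.630, 0.702 and 0.402 in A11, A12, B1, B2 and B3, below 1 in each, on 1 to 3 cells with both. Of the cells with Igfbp5 6.11% also had Igfbp4, and of the cells with Igfbp4 3.51% also had Igfbp5. Without thinning, 31 of 2601 cells had both against 79.8 expected (0.389).

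The division followed the clusters. With the expected number computed within each cluster and summed, it was 9.45 and the ratio was 1.16 (0.581 to 2.08). In cluster 4 of the cKO-labelled library 5 cells had both against 3.14 expected, and in cluster 3 there was 1 against 1.76. So within clusters neither exclusive nor joint use was detectable at this depth. In the control-labelled library Igfbp4 was too rare to judge, with 3 cells with both, 30 with only Igfbp4 and 194 with only Igfbp5 of 2806, a ratio of 1.29 (0.267 to 3.78). The cKO-labelled ratio stayed below 1 over the whole fraction in each other setting tried, but its size moved, to 0.198 with the stricter cell filter, 0.153 at 1000 UMIs and 0.210 with at least 2 UMIs of each gene.

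Of the other 9 pairs, Igfbp5 with Igfbp7 and with Igf1r lay below 1 in both libraries, and Igfbp7 with Igf1r lay above 1 in both. Igfbp5 and Igfbp7 were found together in 33 cKO-labelled cells against 74.0 expected (0.446, 0.307 to 0.626) and in 30 control-labelled cells against 60.5 (0.496, 0.334 to 0.708). Igfbp5 and Igf1r gave 0.515 and 0.669, with both intervals under 1. Igfbp4 and Igfbp7 gave 1.26 (1.07 to 1.47) in the cKO-labelled library, and Igfbp7 and Igf1r gave 1.24 (1.11 to 1.38) and 1.17 (1.03 to 1.32). All other intervals held 1: Igfbp4 gave 0.986 with Igfbp7 in the control-labelled library, 1.12 and 0.799 with Igf1r, and 1.14 and 0.945 with Igf2r. Igf2r gave 1.05 and 1.03 with Igfbp5, and between 0.913 and 1.08 with Igfbp7 and Igf1r. Within clusters the intervals of all 10 pairs held 1.

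**Figure D4:**
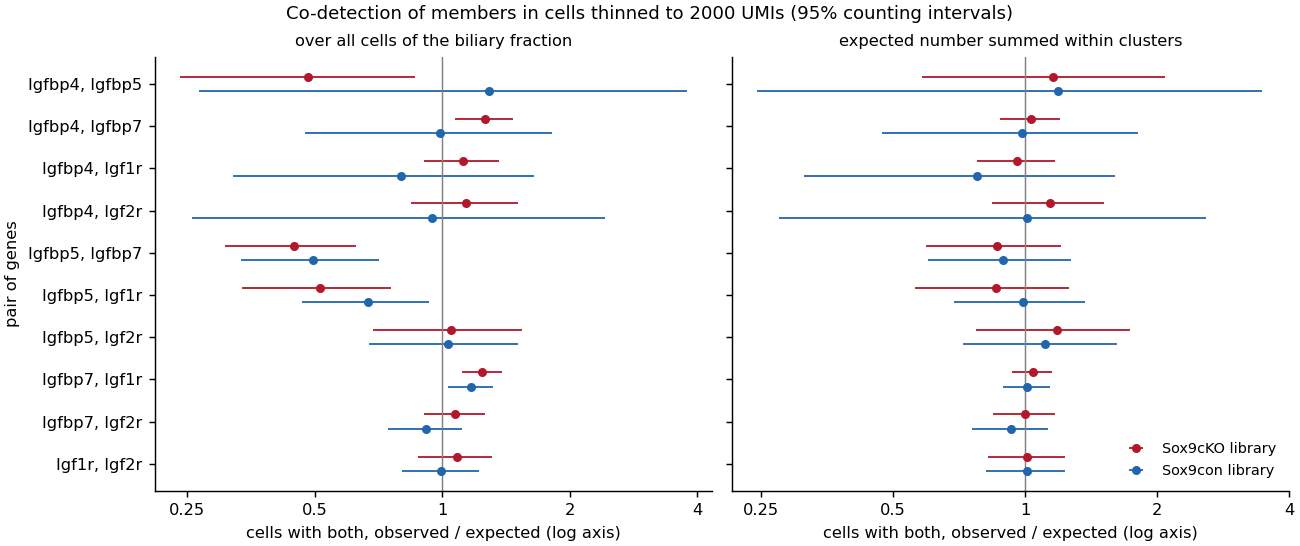
Ratio of the observed to the expected number of cells with a UMI of both genes (x axis, log scale) for 10 pairs of members (y axis) at 2000 UMIs a cell, red for the cKO-labelled and blue for the control-labelled library, with exact 95% Poisson intervals. In the left panel Igfbp5 pairs with Igfbp7 and Igf1r below 1 and, in the cKO-labelled library, with Igfbp4 at 0.481; in the right panel, with the expected number summed within clusters, every interval holds 1.

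Igfbp7, a secreted protein with a low affinity for IGFs that is deposited in vessel walls, was found in biliary cells of both libraries and most of their clusters. The cKO-labelled biliary fraction held 5539 UMIs at 386 CPM (376 to 396), and the control-labelled one held 2805 UMIs at 230.4 CPM (222 to 239). The log2 ratio was 0.74 (0.68 to 0.81), a 1.67-fold difference at rank 335 of 9325 genes. Levels by well were 448, 341, 459, 371 and 344 CPM in A11, A12, B1, B2 and B3 against 200.3, 227, 285 and 235 CPM in D9, D10, D11 and D12, with no overlap. Shares of cells at 2000 UMIs were 41.1% and 30.7%.

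The sign of the Igfbp7 ratio depended on which clusters were summed. Cluster 5 stood at 742 CPM with a UMI in 89.7% of cells, cluster 3 at 428 CPM and 76.6%, and they held 84.7% of the cKO-labelled Igfbp7 UMIs. Outside those clusters, again a separation chosen after the data were seen, the order turned, to 140.3 CPM against 230.0 CPM (log2 ratio -0.71, -0.83 to -0.60). Within single clusters, though, all 6 ratios were above 0, from 0.018 to 0.62, and only that of cluster 1 (168 against 125 CPM, log2 0.42, 0.19 to 0.65) had an interval above 0. Cluster 2, led by Adgrv1 and Ctnna2, stood at 449 and 398 CPM and held 1.77% of the cKO-labelled but 44.2% of the control-labelled Igfbp7 UMIs. Igfbp7 was low where Igfbp5 was high, at 41.5 and 37.8 CPM in cluster 4, and also in cluster 6, led by Slc28a2 and Ltf, at 33.6 and 21.6 CPM. In the annotation used, Igfbp7 overlaps Polr2b and an antisense gene on the other strand, and strand handling is not given in the sources used here, so reads of these genes may be mixed.

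Igfbp1 and Igfbp2, liver-secreted carriers known from hepatocytes, were rarely detected in the biliary fraction. Igfbp1 gave 4 UMIs in 3 cells of the cKO-labelled library and 0 in 3370 cells of the control-labelled one, which allows up to 0.0890% of cells with a UMI at this depth and sets no limit on cells that express the gene. Igfbp2 gave 3 UMIs and 1 UMI. Igfbp6, a binding protein with a preference for IGF2, gave 12 UMIs and 6 UMIs, of which 6 lay in 1 cell of cluster 5 and 6 in 6 control-labelled cells of cluster 7. Neither Igfbp1 nor Igfbp6 was seen in 84 and 117 endothelial-like cells. These counts support no ratio.

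Igfbp3, the main carrier of IGFs in plasma together with the acid-labile subunit, was rare in biliary cells and high in single non-biliary cells. The biliary fraction held 42 UMIs in 25 cells (2.92 CPM) and 25 UMIs in 20 cells (2.05 CPM), with a log2 ratio of 0.50 (-0.24 to 1.29). Of the 42 UMIs, 30 lay in 14 cells of cluster 5 (8.39 CPM). Among 84 cKO-labelled endothelial-like cells 40 UMIs came from 3 cells, with 23, 11 and 6, and the 117 control-labelled ones held 1 UMI. The level of 156 against 2.80 CPM therefore describes 3 cells. These cells held 9, 7 and 7 of the 12 endothelial markers, at most 2 UMIs of the 8 sinusoidal markers, and 7, 0 and 6 UMIs of the 10 vascular markers, while the class as a whole held 1378 sinusoidal and 153 vascular marker UMIs. Without them the class held 0 Igfbp3 UMIs. Among the mesenchymal-like cells 3 of 8 and 2 of 7 had Igfbp3, with 21 and 10 UMIs, 18 of the 21 in 1 cell.

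Igf1r, the signalling receptor, was found in every biliary cluster of either library. The biliary fraction held 3381 UMIs at 235 CPM (228 to 243) with the cKO label and 2262 UMIs at 186 CPM (178 to 194) with the control label, a log2 ratio of 0.34 (0.26 to 0.42). Wells A11, A12, B1, B2 and B3 stood at 237, 226, 232, 243 and 242 CPM, and wells D9, D10, D11 and D12 at 215, 158, 152 and 199.6 CPM. The wells did not overlap, although D9 lay close to A12. Among the control-labelled wells the order of Igf1r was that of the median depth, which was 4346 UMIs in D9, 3341 in D12, 3168 in D10 and 2393 in D11. Among the cKO-labelled wells it was not, since the deepest, A12 with a median of 6485 UMIs, had the lowest level and the shallowest, A11 with 3537, stood at 237 CPM. At 2000 UMIs a cell the levels were 232 and 191 CPM, in 28.0% and 26.6% of cells.

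By cluster Igf1r followed Igfbp7. It was highest in cluster 2 of the cKO-labelled library, at 595 CPM over 65 cells against 260.4 CPM over 895 control-labelled cells (log2 1.19, 0.91 to 1.46), and stood at 389.5 CPM in cluster 5. It was lowest in cluster 4 (73.3 and 73.6 CPM) and cluster 6 (75.9 and 32.9 CPM). Over the 14 combinations of 8 clusters and library with at least 50 cells, the levels of Igf1r and Igfbp7 on the log scale had a Pearson r of 0.945, given as a description, since the combinations share libraries and depth. Outside clusters 3 and 5, a separation chosen after the data were seen, the log2 ratio between libraries was -0.32 (-0.44 to -0.21). Within single clusters, though, 4 of the 6 Igf1r ratios were above 0, and the 6 ran from -0.18 to 1.19. In 3 of them (clusters 1, 2 and 6) the interval lay above 0, and in 0 it lay below.

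Igf2r, the clearing receptor, was the most even of the 5. It stood at 77.8 CPM (1118 UMIs) and 75.5 CPM (919 UMIs), a log2 ratio of 0.044 (-0.083 to 0.17), with wells from 73.0 to 82.7 CPM and from 66.4 to 80.3 CPM that overlapped. Over clusters 0 to 7 it ran from 59.1 to 111 CPM, and none of the 6 within-cluster ratios had an interval that left out 0. The annotation places the antisense transcript Airn over Igf2r, so the same limit on strand applies.

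Endothelial-like cells held Igfbp4 and Igfbp7 at higher levels than biliary cells in both libraries. All 12 endothelial markers reached 50 CPM there, and the 8 sinusoidal markers summed to 5369 and 6370.5 CPM against 596 and 695 CPM for the 10 vascular ones. In these cells 7 of 12 biliary markers also reached 50 CPM, summing to 1173 and 1423 CPM against 8451 and 14284 CPM in the biliary fraction. What part of the members' levels in endothelial-like cells comes from biliary transcripts was not tested. Igfbp4 stood at 253 CPM (65 UMIs in 33 of 84 cells) with the cKO label and 369.8 CPM (132 UMIs in 64 of 117 cells) with the control label. Over the biliary fraction of the same library this was 3.21-fold (log2 1.68, 1.30 to 2.05) and 59.3-fold (log2 5.89, 5.49 to 6.34) higher. Igfbp7 stood at 1153 and 1997 CPM, in 91.7% and 97.4% of cells, 2.99-fold and 8.67-fold above the biliary fraction. Igfbp5 went the other way, with 5 UMIs in 1 cell and 2 UMIs, at 19.5 and 5.60 CPM against 53.3 and 55.2 CPM in biliary cells. Igf1r stood at 281 and 308 CPM. Igf2r gave 14 and 7 UMIs, 54.5 and 19.6 CPM, below the biliary level in the control-labelled library (log2 -1.94, -3.26 to -0.90).

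Free RNA from endothelial cells could carry such transcripts into other cells at a common rate, so the biliary level was set against endothelial markers. The 12 markers stood in the biliary fraction at a median of 0.244% of their endothelial-like level in the cKO-labelled library (highest 0.810%, Tek) and 0.200% in the control-labelled one (highest 1.28%, Pecam1). Igfbp4 stood at 31.1% and 1.67%, and Igfbp7 at 33.4% and 11.5%. Both members thus lay above all 12 markers in either library. The margin was smallest for Igfbp4 in the control-labelled library, against 1.28% for Pecam1 and 0.666% for the next marker, and Pecam1 itself was uneven over the fraction, at 265 CPM in cluster 7 of that library. What part of the biliary Igfbp4 UMIs, the 75 of the control-labelled library included, or of the Igfbp7 UMIs is free RNA was not tested.

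**Figure D5:**
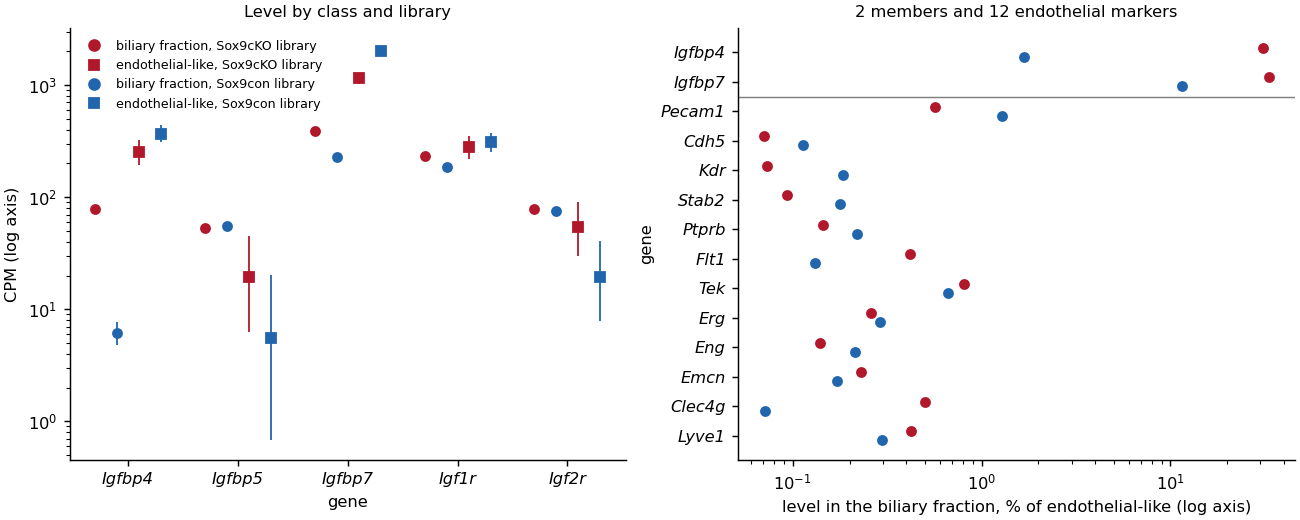
Left, level in CPM (y axis, log scale) of 5 members in the biliary fraction (circles) and endothelial-like cells (squares) of the cKO-labelled (red) and control-labelled (blue) library, with exact 95% Poisson intervals. Right, the level in the biliary fraction as a percent of that in endothelial-like cells (x axis, log scale) for Igfbp4, Igfbp7 and 12 endothelial markers; both members lie above all markers of their library, control-labelled Igfbp4 at 1.67% by the smallest margin over Pecam1 at 1.28%.

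Between the libraries Igfbp4 and Igfbp7 differed in endothelial-like cells in the direction opposite to the biliary fraction. Igfbp4 was lower in the cKO-labelled library, with a log2 ratio of -0.54 (-1.0 to -0.11), and so was Igfbp7, with -0.79 (-0.99 to -0.59). In these cells 1.93% of the 2543 genes with at least 50 UMIs were at least 2-fold higher and 3.89% at least 2-fold lower, and neither gene was among them. Wells overlapped: Igfbp4 stood at 232, 166, 319.6, 274 and 284 CPM in A11, A12, B1, B2 and B3 and at 307, 229.7, 574 and 452 CPM in D9, D10, D11 and D12. Igfbp7 ran from 739.6 to 1891 CPM and from 1222 to 2944 CPM. A single control-labelled cell held 44473 UMIs, 12.5% of its class, while the next deepest held 9321. It had 21 Igfbp4 UMIs, 1 Igfbp7 UMI, 369 UMIs of endothelial but 3 of sinusoidal markers. Without it the control-labelled levels were 355 and 2278 CPM and the log2 ratios -0.49 (-0.95 to -0.034) and -0.98 (-1.18 to -0.78). With all cells of the class, Igf2r was higher in the cKO-labelled library, at a log2 ratio of 1.40 (0.071 to 3.03) on 14 and 7 UMIs. Igf1r was at -0.13 (-0.58 to 0.31).

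Mesenchymal-like cells were too few for a comparison. Igfbp7 was found in all 15, with 88 UMIs in 8 cells and 66 in 7 cells, and Igfbp4 in 5 of 8 and 3 of 7. Of the 24 Igfbp5 UMIs in the cKO-labelled cells 23 lay in 1 cell.

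Ligands and proteases of the pathway were read from a list of 34 genes, of which 23 passed the 200 UMIs. Among the 23, 3 lay 2-fold or more above the control-labelled library and 0 as far below, beside 2.19% and 1.80% of all 9325 genes, with a median log2 ratio of 0.0071, and 12 of the 23 lay above 0. Igf1, the ligand, stood at 106 CPM (1526 UMIs) against 29.6 CPM (360 UMIs), a log2 ratio of 1.84 (1.68 to 2.01). Pappa, the protease of IGFBP4, stood at 12.2 against 3.20 CPM (1.91, 1.42 to 2.47), and Stc2, its inhibitor, at 12.4 against 4.76 CPM (1.37, 0.94 to 1.83). Each of the 3 was higher in 20 of 20 pairs of wells, over a fraction whose mix of clusters differed between the libraries. Pappa (175 and 39 UMIs) and Stc2 (178 and 58 UMIs) reached the 200 UMIs mostly through the cKO-labelled library. The list was chosen with earlier results known, so nothing is read from the count of 3.

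Clusters 3 and 5, with 58.1% of all UMIs of the cKO-labelled fraction, held 93.1% of its Igf1 UMIs, 95.4% of those of Pappa and 65.2% of those of Stc2. Stc2 was thus spread more like the UMIs as a whole, at 17.4 CPM in cluster 3, 9.23 in cluster 5 and 23.4 in cluster 6, where Igfbp4 stood at 2.92 CPM. Igf1 stood at 285 CPM in cluster 5 and 84.3 CPM in cluster 3, and at 65.2 CPM in cluster 2 of the control-labelled library, which held 203 of its 360 UMIs. Among the 6 clusters compared above, Igf1 was higher with the cKO label in all but cluster 6, which held 0 UMIs. The counting intervals of the levels overlapped in each of the others, narrowly in clusters 0 and 1. In cluster 2 the levels were 77.9 CPM (45.4 to 125) on 17 UMIs against 65.2 CPM (56.5 to 74.8). In cluster 7 they were 128 CPM (85.9 to 184) against 80.8 CPM (59.2 to 108), and cluster 4 held 12 and 4 UMIs. Pappa stood at 18.7 CPM in cluster 3 and 21.8 CPM in cluster 5. In cluster 2 of the control-labelled library it stood at 9.63 CPM with 30 of 39 UMIs, against 0 UMIs in the 65 cKO-labelled cells. In cluster 1 Pappa stood at 2.14 (6 UMIs) against 2.61 CPM (5 UMIs), and in cluster 0 at 2.57 (1 UMI) against 0.511 CPM (2 UMIs). The pooled difference of Pappa therefore rests on clusters 3 and 5. Since Igf1 is a hepatocyte transcript, the hepatocyte marker sums given above, mostly Alb in clusters 3 and 5, apply to it as well. The part of hepatocyte transcripts in the Igf1 levels was not tested.

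Among the most abundant genes of the list by CPM, the adaptors Grb10 and Grb2, the kinase subunits Pik3ca and Pik3r1 and the insulin receptor Insr had log2 ratios between -0.16 and 0.29. The lowest ratio among the 23 genes that passed was that of Igf2bp2, an RNA binding protein, at -0.61 (73.4 against 112 CPM, higher in 0 of 20 pairs). Irs2 stood at 69.0 against 87.9 CPM. In endothelial-like cells Stc1 gave 61 UMIs in 10 of 84 cKO-labelled cells, 25 of them in 1 cell, and 6 UMIs in the control-labelled ones. All 95 Igf2 UMIs of the control-labelled endothelial-like cells lay in the single cell of 44473 UMIs.

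Genes with the pattern most like each member were sought over the same 14 combinations, by Pearson r on log CPM. For Igfbp4 they included Eya4 (0.953), Cdkn2b (0.883), Cd36 (0.863) and Adarb1 (0.857), of which Eya4 is also among the 10 leading genes of cluster 3. For Igfbp5 they were Adam8 (0.888), Galnt10, Pls3, Fam171a1 and Cap1 (0.858), and for Igfbp7 Cald1 (0.976), Prox1, Alb, Hspg2 and Prex2 (0.959). For Igf1r they were Stra6l (0.968), Slc4a3, Tgfb2, Plcb4 and Kalrn (0.952), and for Igf2r Rapgef2 (0.897), Cpeb3, Ptch1, Nfia and Aldh1l1 (0.891). Among the members themselves r was 0.599 between Igfbp4 and Igfbp7, -0.063 between Igfbp4 and Igfbp5, and -0.499 between Igfbp5 and Igfbp7.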

How the data were processed

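Fixed mouse liver cells of 1 cKO-labelled and 1 control-labelled library were barcoded with the Evercode Whole Transcriptome kit, per the labels' protocols. The authors deposited whole-number UMI counts per cell and gene, with gene and cell tables, per the file headers. The genome was GRCm39, per the submitters' processing notes. The aligner, the annotation release, strand handling and the choice of cell barcodes are not given in the sources used here.

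From these counts, cells were kept that had 500 or more genes, 1000 or more UMIs and a mitochondrial share of 15% or less. Scrublet in scanpy 1.11.5 marked 5 cells (0.0786%) as doublets, too few to have worked, and they were removed. Both libraries were clustered together (2000 variable genes, 30 components, 15 neighbours, Leiden resolution 0.5) without the members, a pathway list of 34 genes and Sox9. Clusters took the class with the largest share of markers at 50 CPM, with at least 3 such markers. A cluster stayed unnamed if each of its 10 leading genes exceeded the remaining cells by 6 log2 units or more, with none of its class's markers among them, and levels and names were set with the data known. The biliary fraction is what remained after endothelial-like, mesenchymal-like and unnamed clusters.

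UMIs were summed per library, class, cluster and well. Levels have exact 95% Poisson intervals, shares exact binomial (Clopper-Pearson) ones, and ratios conditional binomial ones, all covering counting error only. Where 0.5 counts were added, they entered the ratio and not its interval. With 1 library a genotype no test was made and no p-value is given. Cells were thinned to 2000 UMIs for co-detection and shares, leaving out 139 and 564 biliary cells, and 1 UMI is then worth 500.0 CPM in a cell. Where a count is 0, 3 UMIs or cells give the upper limit. Likeness was computed on log2 of CPM plus 10 for members with at least 500 UMIs.

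The members and lists were chosen with earlier results of these data known. Named are all 9 members, their 5 most alike genes, list genes at least 2-fold apart or among the 6 highest, and each cluster's 3 leading genes; further genes, cells and clusters were named after their values were seen. Some genes that this rule names are not reported here. Alternatives covered cell filters, doublet scores, clustering, scaling (edgeR 4.0.16, DESeq2 1.42.0), gene minimums, thinning depth and each well left out. The ratio, thinning and co-detection code was tested on simulated data. Windows of 250 bases were read from RefSeq promoters (GRCm38.p6), a build other than that of the counts, and gene overlaps from GENCODE vM21.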

Additional observations from a re-analysis of the deposited data

Results flagged for a closer look

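Igfbp4 and Igfbp7 were flagged because the same contrast, cKO-labelled over control-labelled, had opposite directions in endothelial-like cells and in the biliary fraction. For Igfbp4 the log2 ratio was -0.54 in endothelial-like cells, on 65 and 132 UMIs, and 3.67 in the biliary fraction. For Igfbp7 it was -0.79 in endothelial-like cells and 0.74 in the biliary fraction. The difference between the classes was not tested, since each genotype is 1 library. The intervals excluded 0 in both classes, but they cover counting error only, and the wells of the libraries overlapped in endothelial-like cells.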

How the results depend on the processing

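No paired analysis was possible because each genotype is 1 library and the labels give no shared replicate numbers. Igfbp4 stayed higher in the cKO-labelled biliary fraction in all 20 alternatives (log2 1.98 to 3.78), at 2.27 over all kept cells and 1.98 without clusters 3 and 5. Without those clusters, an alternative chosen after the data were seen, Igfbp5 moved to 1.02, Igfbp7 turned to -0.71 and Igf1r to -0.32, 2 members were at least 2-fold apart, and 99 genes were at least 2-fold higher and 285 lower. Igfbp5 was -0.25 with the stricter cell filter, 0.33 as a mean over cells and 0.34 thinned to 2000 UMIs. Igfbp7 was 0.81 with DESeq2's size factors, 0.54 as a mean over cells, 0.49 over all kept cells and 0.61 thinned. Leaving out each well in turn, Igfbp4 ran from 3.54 to 3.78, Igfbp5 from -0.13 to 0.030 and Igfbp7 from 0.66 to 0.82. Genes at least 2-fold higher numbered 174 to 232 and lower 112 to 388, the last without well D9. The counts were 102 higher when thinned, 268 lower at a minimum of 100 UMIs, and 619 higher and 741 lower at 20 UMIs.

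The cKO-labelled co-detection ratio of Igfbp4 and Igfbp5 was 0.198 with the stricter cell filter, 0.153 at 1000 UMIs and 0.210 with at least 2 UMIs, and crossed 1 to 1.16 with the expected number summed within clusters, which by construction removes differences between clusters. The control-labelled ratio was 0 at 1000 UMIs. Without each well they ran from 0.430 to 0.537 and from 1.05 to 1.55. The endothelial-like over biliary log2 ratio of Igfbp7 was 1.38 and 2.80 with the stricter filter, 1.77 and 3.35 as a mean over cells, 3.49 in the control-labelled library without the highest doublet scores and 3.31 without its deepest cell. Without each well it ran from 1.46 to 1.67 and from 2.99 to 3.34, and that of Igfbp4 from 1.57 to 1.78 and from 5.66 to 6.14. Without the 3 cells that hold all its Igfbp3 UMIs the cKO-labelled endothelial-like class is at 0, so its ratio of -5.45 is set by the added 0.5 counts and shows no direction. The Sox9 ratio ran from -0.42 to 0.15 without each well, and was above 0 only without D9 (0.15). Causes of these shifts were not tested beyond the settings' own construction. Depth limits Igfbp4 in control-labelled clusters, endothelial-like Igf2r and all of Igfbp1, Igfbp2 and Igfbp6.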
